A study of Mus musculus with 4 samples.

Results

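Spi1, Cebpa, Cebpb, Maf, Irf8, Irf1, Irf2 and Irf5 encode 8 transcription factors of the myeloid lineage, the blood cell branch that forms macrophages. They were looked up by gene name in the authors' peak lists and differential tables, which name 13067 genes in all, and 7 of the 8 were found there. The tables come from m6A-seq, which maps N6-methyladenosine (m6A), a methyl mark on adenosines inside mRNA. Fragments of poly(A) RNA bound by an m6A antibody form the IP library, and fragments taken without the antibody form the input library. The KO cells were bone-marrow-derived macrophages of C57BL/6 mice with floxed Mettl3 alleles and LysM-cre, a Cre recombinase driven from the lysozyme 2 gene, and the WT cells carried the same floxed alleles without Cre. Both were cultured with macrophage colony-stimulating factor for 7 days. There was 1 IP library and 1 input library per genotype, hence 4 in total, so no difference below has a replicate check, and the libraries' depth is unknown here. No source used here gives the share of cells in which Mettl3 was deleted.

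METTL3 is the catalytic subunit of the complex that writes m6A, mostly near stop codons and in 3′ UTRs and within long exons. The mark is read by proteins that alter the splicing, translation and decay of the transcript. PU.1, the product of Spi1, is the ETS family factor that opens macrophage enhancers and drives the gene for the macrophage colony-stimulating factor receptor. C/EBPα, from Cebpa, commits progenitors to the granulocyte and monocyte branch, and C/EBPβ, from Cebpb, acts in inflammatory gene programmes. The Maf product c-MAF belongs to the large MAF proteins of mature macrophages. The interferon regulatory factors share a DNA-binding domain: IRF8 works with PU.1 in monocyte development, IRF5 acts below Toll-like receptors, IRF1 activates interferon-responsive genes and IRF2 often opposes it.

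Of the 8 genes, 6 had peaks under their own name in the KO list, with 20 peaks, and 7 in the WT list, with 14 peaks. Irf1 was the gene without a peak of its own in either list, and Cebpb had one in the WT list alone. Of the KO peaks 13 were annotated to a 3′ UTR, 4 to a 5′ UTR and 3 to other exons, and of the WT peaks 9 to a 3′ UTR, 3 to a 5′ UTR and 2 to other exons. Over all peaks, 3′ UTRs held 64.1% in the KO list and 59.6% in the WT list. A false discovery rate above 0.05 was listed for 5 of the 20 KO peaks (2 of Maf, 2 of Irf2 and 1 of Irf8) and for 2 of the 14 WT peaks. The share over each whole list is not given here, so these counts are not read as particular to these genes.

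Most peaks of these genes overlapped one of the other genotype, at shares near those of all peaks. Of the 20 KO peaks, 13 shared at least 1 exonic base with a WT peak (61.6% over the whole KO list), and of the 14 WT peaks, 12 shared one with a KO peak (73.4% over the whole WT list). The shared stretch ranged down to 31 bases for a Maf pair. The 7 KO peaks with no WT partner comprised 3 of Maf, 3 of Irf8 and 1 of Irf2. The 2 WT peaks with no KO partner were 1 of Irf8 and 1 of Irf2. Both of these WT peaks had a false discovery rate above 0.05, at 0.571 and 0.0832.

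Enrichment spanned a wide range among these genes. In the KO list it ran from 1.19-fold to 122-fold over input, with a median of 2.05 over the 20 peaks against 3.15 over the whole list. In the WT list it ran from 1.22-fold to 306-fold, with a median of 3.20 over the 14 peaks against 3.74 over that list. The medians of the 20 and the 14 peaks cover unlike sets. Maf gave 8 of the KO peaks and 3 of the WT peaks, and Cebpb had a peak under its own name in WT alone. Maf held the highest value in each list, and the lowest belonged to Maf in KO and to Irf2 in WT. The enrichments are the authors' own, each belongs to its own list, and they are set side by side here without a test.

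**Figure D1:**
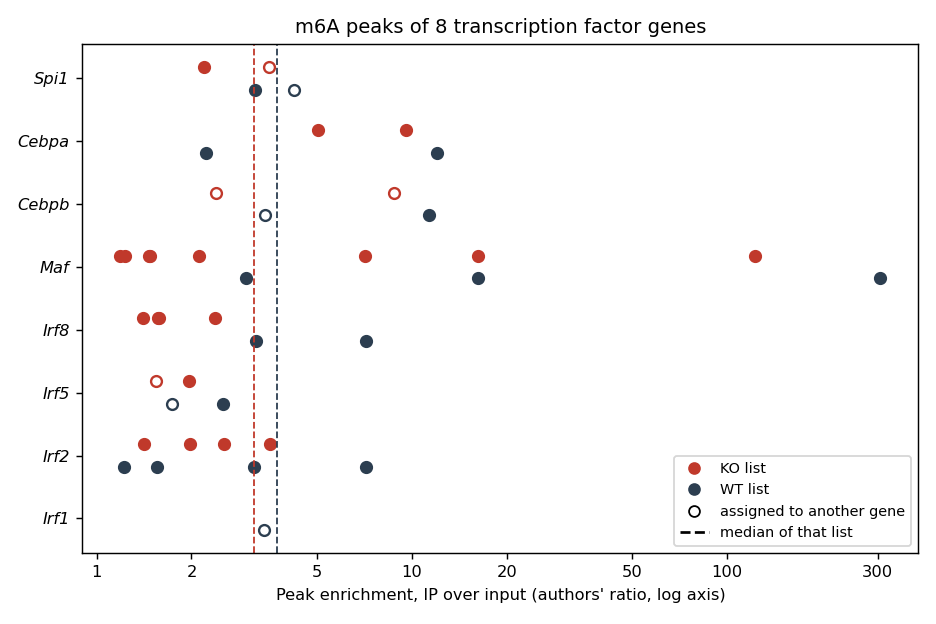
Enrichment of each peak (IP over input, the authors' ratio, log axis) for the 8 genes, with KO peaks in red above WT peaks in blue; open circles are peaks inside the gene that the authors assigned to another gene, and dashed lines are the medians of the lists, 3.15 in KO and 3.74 in WT. Maf peaks reach 122-fold in KO and 306-fold in WT, and Irf1 has no peak of its own.

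The lists name each peak by a gene and give its distance to that gene's transcription start, and peaks at the 3′ end of Spi1 and along Cebpb carry other names. Over the whole series, the share of peaks outside the RefSeq extent of the assigned gene was 20% in the KO list, 17.8% in the WT list and 18.6% in the differential table, among peaks whose gene name was found in RefSeq. A search by position added 4 KO peaks, 4 WT peaks and 3 differential peaks that lie within the extents of these 8 genes. They are described with their genes and kept apart from the counts by name.

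The 3′ end of Spi1 held a peak on chromosome 2 from 91114314 to 91115756 in KO (779 exonic bases, 3.51-fold) and from 91114284 to 91115756 in WT (809 exonic bases, 4.23-fold). Both end 3 bases before the RefSeq end of Spi1 at 91115759 (build mm10, GRCm38). The authors' tables name these peaks for Mybpc3, a heart myosin-binding protein whose RefSeq extent starts 2355 bases farther on. The input level of Mybpc3 was 0.0446 FPKM (fragments scaled by transcript length and library size) in KO and was listed at 0 in WT, while that of Spi1 was 101 FPKM in KO and 90.5 FPKM in WT. The authors' deposited table gave this 3′ peak a log2 ratio of KO over WT enrichment of -0.43, with a p of 3.98e-50, the 90th lowest of its 6050 peaks.

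Under its own name Spi1 had 1 peak in each list, in the first part of the gene. The KO peak was a single block of 390 bases from 91089860 to 91090249 with 2.19-fold enrichment, annotated to an exon. The WT peak had 2 blocks, 134 bases near the transcription start and 496 bases farther on, from 91082390 to 91090309 with 3.19-fold enrichment, annotated to the 5′ UTR. The block near the start was thus part of the WT peak and not of the KO peak. The differential peak (91082480 to 91090249) held 44 bases of the block near the start and 436 of the block farther on, so its ratio covers mostly the latter. The ratio of this peak stood at -0.68 in the authors' deposited table, a KO enrichment 0.624 times that of WT, with a false discovery rate of 6.31e-11. It was the lowest ratio among the 8 genes, and 23.8% of the table's peaks lay below it.

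Cebpb has no intron, and its WT peak covered the whole transcript. That peak ran from 167688915 to 167690418 on chromosome 2, all 1504 bases of the annotated transcript, with 11.3-fold enrichment, higher than 85.6% of the WT list. In the KO list the same locus held a peak of 1327 bases from 167689092 to 167690418 with 8.76-fold enrichment, higher than 84.9% of the KO list. The KO peak covered 88.2% of the transcript and ended on the same base, but the authors named it for Tmem189. Its first base lay 177 bases into Cebpb, and it spans the start of a Tmem189 transcript beginning at 167689822 on the other strand. The RefSeq extent of Tmem189 ends far away, at 167661544. The authors' deposited table gave the 1327 bases a log2 ratio of -0.32, or 0.802 times the WT enrichment, with a p of 1e-18.

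A shorter peak of 271 bases (167689552 to 167689822), annotated to the first exon of that Tmem189 transcript, lay wholly within the Cebpb peak in each list. Its enrichment was 2.40-fold in KO and 3.41-fold in WT, and its log2 ratio in the authors' deposited table was -0.25, with a false discovery rate of 0.0117. The tables give no strand for a peak, so which of the transcripts carried these reads was not tested. The level listed for Tmem189, 79.5 FPKM in KO and 81.4 in WT, was not used for Cebpb, whose own input level was not analysed here.

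Cebpa, also without introns, had a pair of peaks in each list. The long peak began on the first transcribed base, 35119293 on chromosome 7, and ran to 35121269 in KO (1977 bases, 9.60-fold) and to 35121299 in WT (2007 bases, 12.0-fold). It is annotated to the 3′ UTR although it starts at the 5′ end, so for such transcripts the annotated part does not tell where in the transcript the mark lies. The short peak ended on the last base, 35121928, with 151 bases and 5.02-fold enrichment in KO and 270 bases and 2.23-fold in WT. Together the peaks covered 80.7% of the 2636 bases in KO and 86.4% in WT. The long peak had the lowest p of the difference among peaks under these genes' own names, 3.16e-44 at a log2 ratio of -0.34 in the authors' deposited table. By enrichment the short peak was higher in KO than in WT, but it is not in the differential table.

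Maf, on the minus strand of chromosome 8, had 8 peaks in the KO list and 3 in the WT list. The strongest had 3 blocks across the locus, from 115683956 to 115707096 with 122-fold enrichment in KO and from 115683747 to 115707096 with 306-fold in WT. These rank 22nd of 21031 KO peaks and 6th of 16709 WT peaks. A single block at the first exon reached 16.2-fold in both lists, with 3600 bases from 115704195 to 115707794 in KO and 4080 bases from 115703715 to 115707794 in WT. The 3-block peak and the single block shared 1342 bases in each list, and a 2-block peak of 440 bases lay within the single block. The same genomic bases are thus reported more than once. That short peak, 2.12-fold in KO and 2.98-fold in WT, is placed by the annotation in an exon of a different gene.

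The further KO peaks of Maf were mostly weak. At the far 3′ end of the annotated transcript, 3 peaks of 240, 61 and 90 bases had enrichments of 1.48-fold, 1.23-fold and 1.19-fold, and the last of them shared 31 bases with the 3-block WT peak. These 3 lie wholly beyond the RefSeq extent of Maf, which covers 115703253 to 115706894, but inside the transcript named in the lists. The 3-block peak also lies partly beyond that extent, with a first block of 806 bases in KO and 1015 in WT. The single block runs past the other end of the extent, to 115707794. The peaks of 61 and 90 bases had false discovery rates of 0.229 and 0.209. A KO peak of 1231 bases from 115702395 to 115703625 had 7.08-fold enrichment and no WT partner. A KO peak of 271 bases (115703775 to 115704045, 1.47-fold) lay within the WT single block.

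Maf accounted for 5 of the 9 differential peaks under these genes' names. The authors' deposited table lists 4 of them as lower in KO, at log2 ratios of -0.39, -0.32, -0.26 and -0.24, and 1 was higher, at 0.38. The higher peak, 151 bases from 115703325 to 115703475, had a false discovery rate of 0.0251, and it is the single higher peak of the 8 genes. The lower peak of 271 bases at -0.24 begins after a gap of 299 bases, so ratios of both signs lay within the RefSeq extent of Maf. The ratios of -0.39 and -0.32 come from peaks that share bases with the single block at -0.26. The ratio of -0.32 belongs to the 3-block peak and amounts to 0.802 times the WT enrichment. In the lists that peak stood at 122-fold in KO and 306-fold in WT, a far larger gap. The single block at -0.26 stood at 16.2-fold in both lists. The enrichments of the lists thus do not give the size of the listed ratio.

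**Figure D2:**
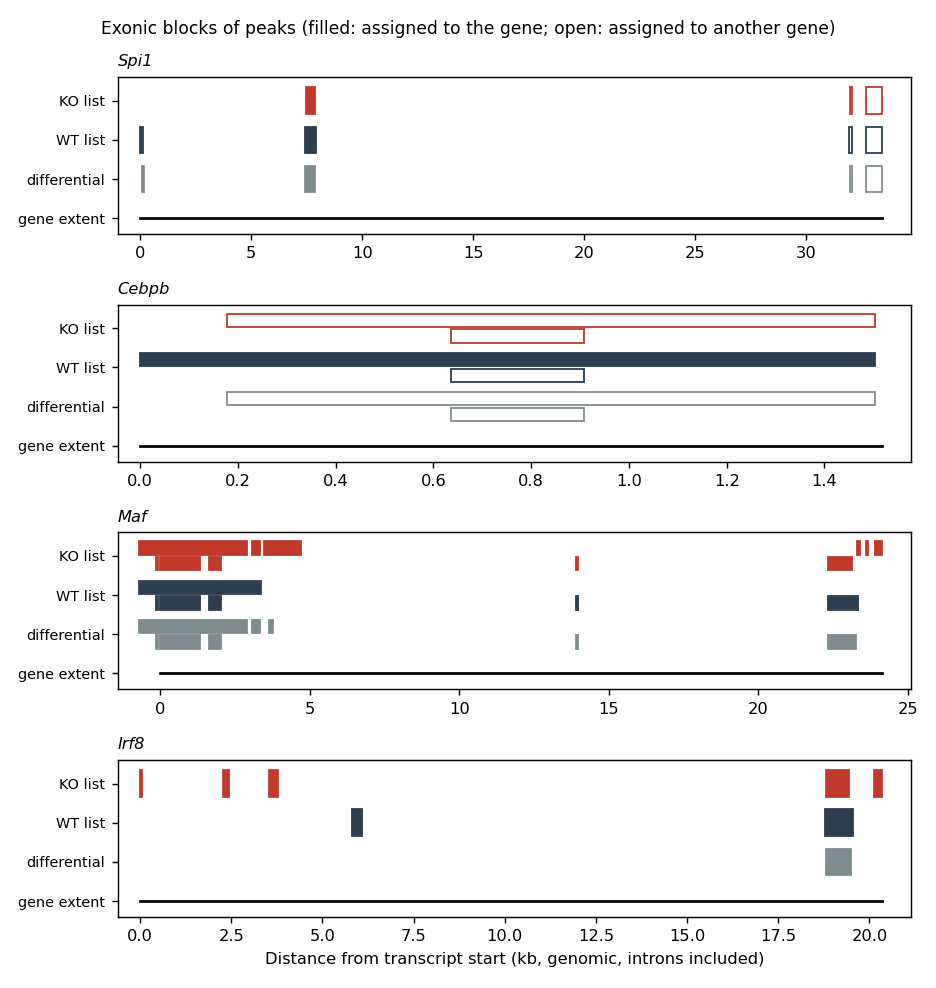
Exonic blocks of peaks along Spi1, Cebpb, Maf and Irf8 by genomic distance from the transcript start (kb), with the KO list above the WT list and the differential table; filled blocks carry the gene's own name, open blocks another gene's name, and peaks of a table that share bases are drawn in separate lanes. The last blocks of Spi1 and all KO blocks of Cebpb are open, Maf peaks overlap one another within each table, and Irf8 has 4 KO peaks and 2 WT peaks.

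Irf8 had a 3′ UTR peak in both genotypes. It ran from 120755170 to 120755797 on chromosome 8 in KO (628 bases, 2.37-fold) and from 120755140 to 120755917 in WT (778 bases, 3.21-fold). Its log2 ratio was -0.43 in the authors' deposited table, with a false discovery rate of 3.16e-12. The KO list held 3 more peaks. One of 210 bases in 2 blocks began on the first base of the gene, at 120736358, with 1.58-fold enrichment. One of 240 bases, annotated to exon 2 of 7 of an Irf8 transcript, had 1.40-fold enrichment and a false discovery rate of 0.0513. One of 210 bases ended on the last base of the RefSeq gene, at 120756694, with 1.57-fold enrichment. The peak found in WT alone, 270 bases in an exon of another Irf8 transcript, had 7.14-fold enrichment and a false discovery rate of 0.571. Only the shared 3′ UTR peak is in the differential table.

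Irf5 had the same 3-block peak in both lists, annotated to the 3′ UTR. It spanned 29536231 to 29541202 on chromosome 6 in KO (929 exonic bases, 1.97-fold) and 29536231 to 29541172 in WT (899 exonic bases, 2.52-fold). All WT bases lay within the KO peak. The differential peak stood at -0.41 in the authors' deposited table with a p of 5.01e-19. A second, short peak inside Irf5, named for Gm43029, had 91 bases and 1.54-fold enrichment in KO and 181 bases and 1.74-fold in WT. Its false discovery rate was 0.105 in KO and 0.00229 in WT.

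Irf2 had 4 short or weak peaks in each list and none in the differential table. At its start, a peak from 46739732 on chromosome 8 covered 300 exonic bases at 2.53-fold in KO and 61 bases at 3.15-fold in WT. Just after it, a peak from 46740212 had 3.54-fold enrichment in KO and 7.14-fold in WT, over 91 bases in KO and 61 in WT. Its false discovery rate was 0.153 in KO and 0.0129 in WT. At the 3′ end, a peak of 390 bases stood at 1.98-fold in KO and at 1.55-fold in WT, shifted by 60 bases with 330 bases shared. A KO peak of 360 bases in 3 blocks (1.41-fold, false discovery rate 0.0562) and a WT peak of 91 bases (1.22-fold, 0.0832) had no partner. The first 50 bases of Irf2, which the first of these peaks overlaps in both lists, are in RefSeq's start-site table (GRCm38.p6), so that stretch could be read.

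GGACT, the most common form of the m6A consensus, was searched on the transcript strand in the first 50 bases after each start site, the only transcribed bases held in that table, and 6 of the 8 genes have an entry there. It was found for Irf2 and Irf1. Both are shown because one lies under a peak of both lists and the other under none; GGACT is in capitals, and the sequences lie at chr8:46739770-46739794 and chr11:53770028-53770057, plus strand.
Irf2: tttgctttcgatctGGACTgttctc
Irf1: cttcgcggcgccgcGGACTcgccagtgcgc
GGACT stood in 5.76% of all 32851 start-site windows, in 5.44% of the 1784 that overlap a KO peak and in 5.72% of the 1975 that overlap a WT peak. The windows of Cebpa, Cebpb, Irf5 and Irf8 hold no GGACT.

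Irf1 had no row under its own name in any table. A WT peak within its extent (53771069 to 53771189 on chromosome 11, 121 bases, 3.4-fold) carries the name Gm17334, lies in an annotated exon of a different gene and had a false discovery rate of 0.229. A missing peak does not show that the mark is absent, since calling a peak depends on transcript level and depth, and neither is known here for Irf1.

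All but 1 of the differential peaks listed for these genes were lower in KO. The authors' deposited table, restricted to peaks with a p under 0.05, lists 9 under these genes' names, 8 lower in KO and 1 higher, and 69.6% of all its 6050 peaks were lower. Of the 9, 5 belong to Maf, and some of those share bases. Peaks it does not list, such as the short one of Cebpa and those of Irf2, were not all lower in KO by enrichment. All 9 had a false discovery rate under 0.05 in the authors' deposited table, as did 79.6% of all its peaks, and 7 had a p under 0.001, against 51.1%. Counting peaks by position adds 3 lower ones, for 11 lower and 1 higher. At least 1 lower peak was listed for 5 of the 8 genes by name, against 25.6% of all genes with a peak in either list, and for 6 with Cebpb by position. A higher peak was listed for 1 gene, against 12.9% of all genes. Strong peaks are listed more often: of genes with a WT peak p of 1e-10 or lower, 69.9% had a lower differential peak, and of the 6 members with such a peak 5 had one by name. Read against that share, the count of these genes does not stand out. The p-values measure reads of single libraries and say nothing of the spread between cultures.

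The median log2 ratio of the 9 peaks was -0.34, against -0.40 over the whole table and -0.55 over its lower peaks. Of the 9, 7 were annotated to a 3′ UTR. Over all differential peaks so annotated the median was -0.34, against -0.54 in 5′ UTRs and -0.55 in other exons. By position and by name together, the ratios ran from -0.68 to 0.38. Relative to the median of the table, 3 of the 9 peaks were lower and 6 higher, the 3 being those of Spi1, Irf8 and Irf5. No outside standard for total m6A enters the ratio.

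**Figure D3:**
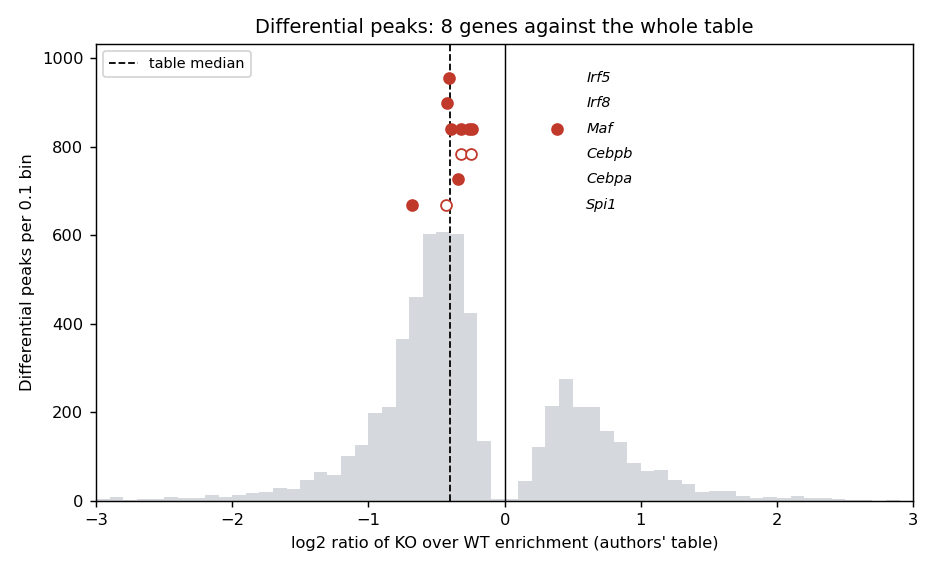
Histogram of the log2 ratios of KO over WT enrichment in the authors' deposited table (62 of 6050 peaks lie beyond the plotted range of -3 to 3), with the peaks of 6 of the genes as points above it; open points carry another gene's name, the dashed line is the table median of -0.40. All points but 1 of Maf at 0.38 lie below 0, from -0.68 to -0.24.

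Input levels were listed for 5 of the 8 genes. Spi1 stood at 101 FPKM in the KO input and 90.5 FPKM in the WT input, and Cebpa at 75.6 FPKM in KO and 83.9 in WT. Irf5 stood at 58.0 FPKM in KO and 59.4 in WT. Maf stood at 38.9 FPKM in KO and 29.3 in WT, and Irf8 at 27.4 in KO and 27.6 in WT. In both inputs Spi1 was the highest and Irf8 the lowest, with Cebpa, Irf5 and Maf between them in the same order. With 1 library per genotype, which neighbours in that order differ beyond their spread cannot be said.

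Maf had the largest difference of the 5. Its KO level was 1.33 times its WT level, a difference of 0.40 on the scale of log2(FPKM + 1), which was above that of 96.4% of 3679 genes listed with a mean level no lower than 1 FPKM. Spi1 was at 0.16, Irf8 at -0.01, Irf5 at -0.03 and Cebpa at -0.15 on that scale. The median of the 5 was -0.01, against 0.07 over the 3679 genes, of which 5 in 100 lay below -0.22 and 5 in 100 above 0.36. None of the 5 reached a 1.5-fold difference, a size reached upward by 2.2% and downward by 1.25% of those genes. The authors' deposited table gave these 5 input differences p-values from 0.603 for Maf to 0.904 for Irf8, and an adjusted p of 1 for each.

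**Figure D4:**
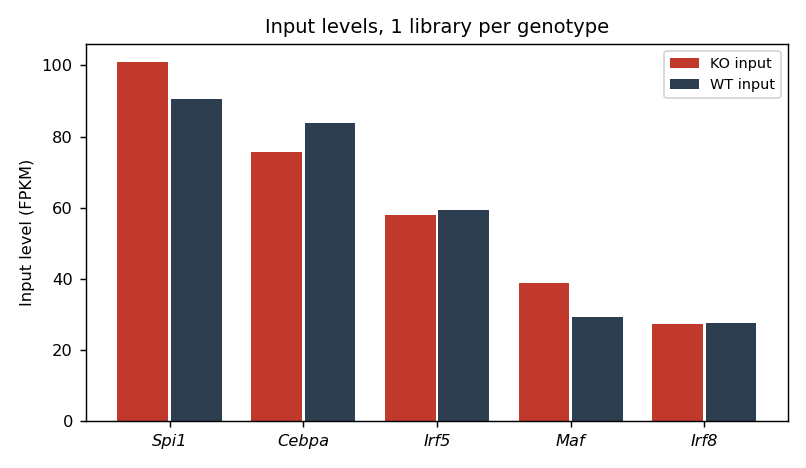
Input level in FPKM of the 5 genes with a listed level, KO input in red left of WT input in blue, 1 library each and so no error bars. Maf stands at 38.9 in KO and 29.3 in WT, and the other genes differ by less than 0.2 on the log2 scale.

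The cells showed macrophage transcripts. Of 10 macrophage markers, 6 had a listed level, from 58.4 to 6615 FPKM in KO and from 40.6 to 10533 FPKM in WT, summing to 9319 in KO and 13373 in WT. The highest, Lyz2, is the gene that drives the Cre. Lyz2 alone makes up nearly all of the gap between the sums, so they do not show a fall of the markers as a group. The neutrophil markers S100a8 and S100a9 were lower in KO, summing to 137 FPKM there and 233 in WT, and the other 6 neutrophil markers had no listed level. Of 45 markers of other cell types, these 2 and the B cell marker Cd79b, at 0.734 FPKM in KO and 1.12 in WT, had a listed level, and none of them was at 0. Levels are listed only for genes with a differential peak, so a missing level does not show that a marker was not expressed. A peak in either list was found for 8 of 10 macrophage, 5 of 6 osteoclast and 4 of 8 neutrophil markers. The same held for 2 of 6 dendritic cell and 2 of 4 stromal markers, and for at most 1 marker of each other type. The share over all annotated genes is not given here, so these counts are not read as a sign of any cell type. In bulk RNA fewer cells of a type and less RNA per cell cannot be told apart, and Cebpa and Irf8 are also expressed in myeloid cells other than macrophages. The part of such cells in these values was not tested. The level of Mettl3 was not analysed here, and whether it is lost in the KO library was not tested.

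Among related regulators too, most of the differential peaks listed were lower in KO, as over the whole table. Of 44 further regulators (relatives of the IRF, C/EBP, MAF and ETS families and other factors of blood lineages), 43 had a peak in either list. A lower differential peak was listed for 14 and a higher one for 3, and Tfec had both. Over all genes with a peak in either list, these shares were 25.6% and 12.9%. Their 22 differential peaks divided into 19 lower and 3 higher ones, against 69.6% lower over the whole table. Their median log2 ratio was -0.36 in the authors' deposited table, against -0.40 over all its peaks. A false discovery rate under 0.05 was listed for 20 of the 22, against 79.6% of all peaks. Irf4, which guides alternative activation, had the lowest ratio at -1.38, on inputs of 0.732 FPKM in KO and 0.65 in WT. Runx1, a partner of PU.1 in early myeloid cells, stood at -1.03 in its 5′ UTR, and Batf at -0.99 in its 3′ UTR, in the authors' deposited table.

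The higher peaks of this group belonged to Tfec at 0.71, Lmo2 at 0.59 and Rbpj at 0.43 in the authors' deposited table, and that of Tfec had a false discovery rate of 0.106. In the inputs, Cebpd stood at 5.39 FPKM in KO and 3.88 in WT, Ets2 at 3.31 in KO and 2.47 in WT, and Runx1 at 7.17 in KO and 5.59 in WT, the largest upward differences of the group. Bhlhe40 stood at 20.2 FPKM in KO and 23.3 in WT and Lmo2 at 56.6 in KO and 63.0 in WT, the largest downward ones with Cebpg at 13.5 in KO and 13.7 in WT. The median difference of the 15 related genes above the same level was 0.09 on the scale of log2(FPKM + 1), and none reached a 1.5-fold difference.

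**Figure D5:**
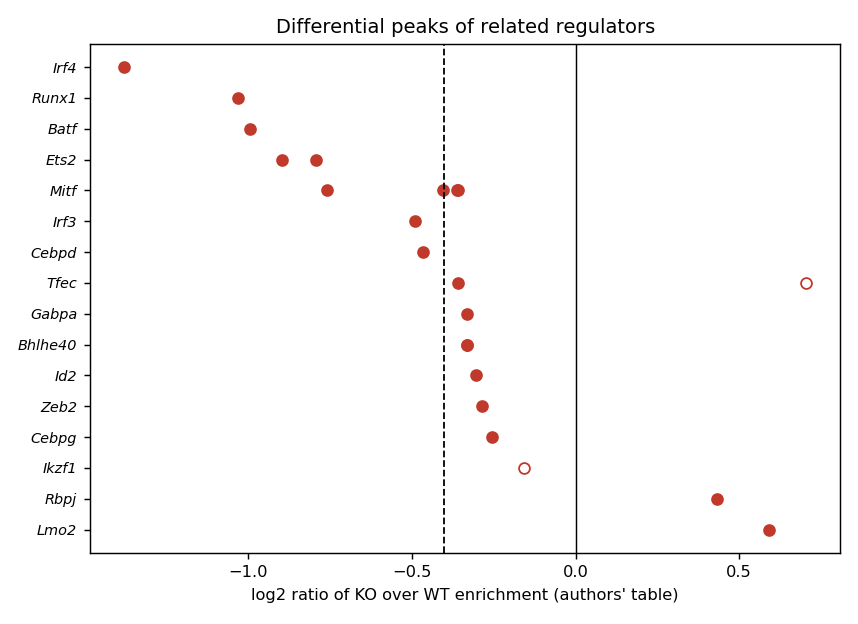
Log2 ratios of KO over WT enrichment in the authors' deposited table for the 16 related regulators with a differential peak, 1 point per peak; filled points have a false discovery rate under 0.05, the solid line is 0 and the dashed line the table median of -0.40. Irf4, Runx1 and Batf lie farthest below 0, and Tfec, Lmo2 and Rbpj have a point above it.

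For Spi1, Maf, Irf8 and Irf5, the most similar other gene was sought among 4398 by the distance over 3 values: the log2(FPKM + 1) of each input and the log2 ratio of the differential peak with the lowest p among those under the gene's own name. For Spi1 this is the peak at -0.68, not the 3′ peak named for Mybpc3. Spi1 lay closest to Plekho1 (distance 0.0622), Maf to Arl4c (0.0972), Irf8 to Dgkz (0.0885) and Irf5 to Jund (0.041). The measure rests on 2 input libraries and 1 ratio.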

How the data were processed

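The authors deposited a peak list per genotype, called on 1 IP and 1 input library and not pooled. Per the file headers, a peak carries its fold enrichment (the IP to input ratio), a p-value, and log10 values of the p and of the false discovery rate; the largest p is 0.05. The authors' deposited differential tables hold, per the file headers, a log2 fold change of enrichment, here KO over WT, with a p-value and a log10 false discovery rate, and input levels in FPKM for genes with a differential peak. Tools named in the submitters' processing notes are edgeR, StringTie, ChIPseeker, HOMER, HISAT2 and fastp, with genome build mm10, and no step is tied to a tool. No source used here names the peak caller. The extract protocol in the labels describes a library that marks strand, but the tables give no strand per peak.

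Starts in the files count from 0: in all 14153 single-block KO peaks and all 10224 WT ones the block size equals end minus start. Printed starts are 1-based. Peaks were compared on exonic blocks, with a minimum of 1 shared base, and matched by position to RefSeq extents (GRCm38.p6). Input differences are log2(FPKM + 1) in KO minus WT, kept where the mean level reached 1 FPKM, a scale that understates the change of low genes. The overlap code was tested on simulated data. With 1 library per group no test was run. A search of letters under whole peaks had been planned and was not run, since only start-site sequences were used here.

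The genes, the list of related regulators and the tests were chosen with earlier results of these data known. The text names all 8 genes, the 3 lowest and highest ratios and the 3 largest input differences each way among related regulators, and the nearest gene of 4 members; 1 related regulator, and the nearest gene of Cebpa, are not reported here. No column of per-sample values was left unused for lack of a sample. Python 3.11.15, numpy 2.4.6, pandas 2.3.3 and matplotlib 3.10.9 were used.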

Additional observations from a re-analysis of the deposited data

How the results depend on the processing

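Peak numbers depended on the threshold. With at least 4-fold enrichment the genes had 5 KO and 6 WT peaks, and 8 in each list when the peak's p had to be 1e-10 or less, against 20 and 14 as listed. With 4-fold enrichment asked of both lists, 3 of the 5 KO and 4 of the 6 WT peaks shared bases with the other list. Without that threshold, 13 of 20 and 12 of 14 did. The shares over all peaks at these thresholds are not given here, so these counts are not read as particular to these genes. Of the 8 lower and 1 higher differential peaks, 3 lower and 6 higher were left once the table's median was subtracted, and at a p under 0.001 7 lower and 0 higher peaks were left. Counting rows that share bases once gave 6 lower peaks, and adding peaks by position gave 11, both chosen after seeing the data. The median input difference, -0.01, was -0.082 after subtracting the median of all listed genes. Of the settings run for these results, no other changed a count by over 1.5 times or turned a direction, and depth, which is unknown here, limits all peak counts. No paired analysis was possible because each group has 1 library and the labels carry no replicate numbers. No library could be left out for the same reason.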
